A study of Mus musculus with 9 samples.

Results

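The masseter, which closes the jaw, and the digastric, which opens it, were compared gene by gene. The 2 arrays were picked by the muscle named on them, among 9 arrays of the series with 1 muscle each. All 9 came from male C57BL/6J mice, an inbred laboratory strain, aged 12 weeks, and no treatment, genotype or transgene is named. The other 7 muscles were trapezius, supraspinatus, triceps, rectus femoris, tibialis anterior, soleus and gastrocnemius. RNA was taken from frozen whole muscle, so connective tissue, vessels, nerve and blood were part of each sample. Neither the number of animals behind an array nor the belly of the digastric is given in the sources used here.

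The masseter lifts the lower jaw against food, while the digastric pulls it down with little load. Both belong to the muscles of the pharyngeal arches, which form under other regulatory genes than limb and trunk muscles. The masseter is a muscle of the mandibular arch, and the digastric has an anterior belly of the same arch and a posterior belly of the hyoid arch. Fast muscles of the mouse are built mainly from fibres with the type IIb and IIx myosins, which rely on glycogen, and contain fewer fibres with the more oxidative type IIa myosin or the slow myosin. Salivary glands lie against both muscles.

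Values are log2 expression, so that a difference of 1 is 2-fold, and they are compared across muscles for the same gene and never between genes. With 1 array per muscle there was no replicate, so no difference below carries an error or a test, and muscle, animal and array cannot be told apart. The medians of the 9 arrays lay between 3.34 and 3.44, and values near or below them cannot be told from background. A gene was called higher in a muscle when it was at least 2-fold above the other muscle and reached 5 in the higher array. The lowest and highest of the other 7 arrays show which of the 2 muscles was unusual for a gene. Fewer cells of a type and less RNA per cell cannot be told apart in such samples.

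Of 22180 genes measured, 7554 reached 5 in the masseter or the digastric. The call was met by 116 genes higher in masseter, 0.523% of all genes, and by 95 genes higher in digastric, 0.428%. The median difference over all genes was -0.006. The same rule gave 55 calls between rectus femoris and gastrocnemius, the lowest number of the 36 pairs of arrays, and 1518 between masseter and rectus femoris, the highest. With 211 calls, masseter and digastric had the sixth lowest number. Triceps, rectus femoris and gastrocnemius had a narrower spread of values than the rest, with standard deviations of 1.92 to 1.96 against 2.03 to 2.08. Their calls against the jaw muscles were mostly higher in the jaw muscle, 1241 against 277 for masseter and rectus femoris. The part of this spread in the counts was not tested. By the root mean square difference over genes above the floor, masseter and digastric were 0.418 apart. By this measure the digastric was about as near to supraspinatus (0.416), and the masseter was 0.453 from supraspinatus. By the number of calls, tibialis anterior came next after the other jaw muscle for both, with 251 against masseter and 223 against digastric. The soleus, a slow muscle, had a root mean square difference of 0.548 from the digastric and 0.652 from the masseter.

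**Figure D1:**
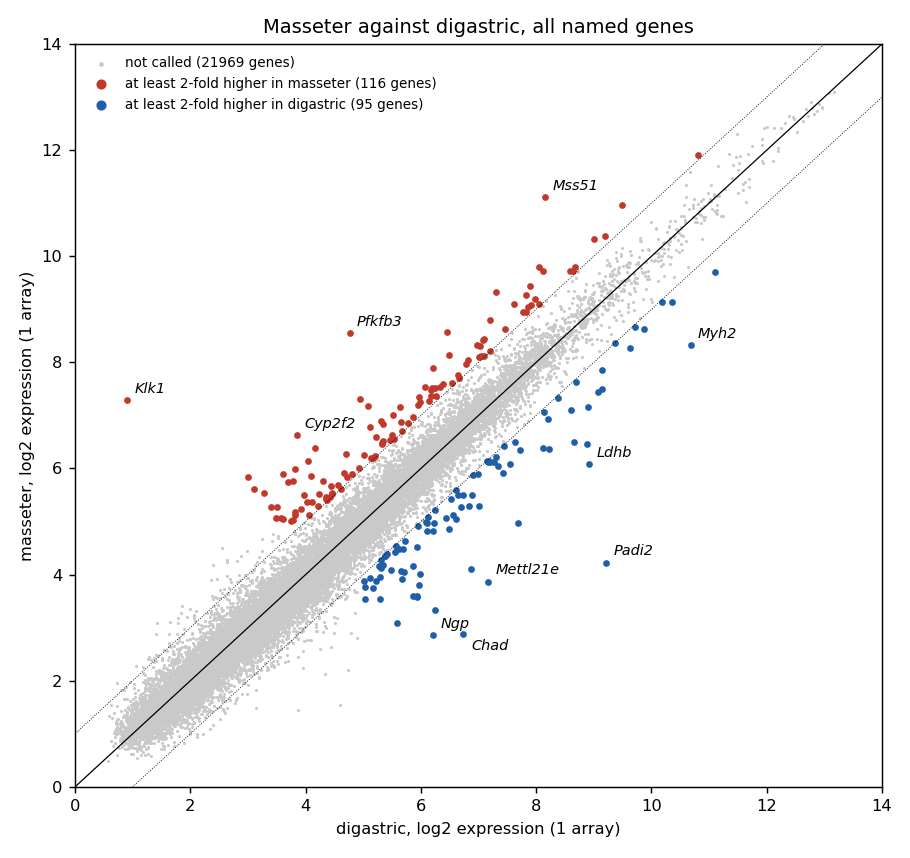
Log2 expression of 22180 genes in the digastric array (horizontal) and the masseter array (vertical), 1 array each. The solid line marks equal values and the dotted lines a 2-fold difference; 116 genes in red were higher in masseter and 95 in blue were higher in digastric, and Klk1 and Padi2 lie farthest from the line.

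The masseter lay apart from the other muscles more often than the digastric did. Among the 211 called genes, 90 had the masseter alone outside the range of the other 7 arrays, against 52 with the digastric alone outside. With the soleus left out of the comparison muscles the numbers were closer, 71 and 65. With triceps, rectus femoris and gastrocnemius left out instead they were 84 and 42. In 27 genes the muscles lay outside on opposite sides, in 10 both lay outside on the same side, and in 32 neither lay outside. Over all 22180 genes the masseter alone was outside in 19.08% and the digastric alone in 15.08%, while both lay on opposite sides in 1.42%. Calls with the muscles on opposite sides were mostly higher in masseter, 22 genes against 5. Calls with neither outside were more often higher in digastric, 21 genes against 11.

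Klk1, the tissue kallikrein, a protease that releases kinins and is abundant in rodent submandibular gland, had the largest difference of the genes when each is taken by its probe set of highest mean. It was at 7.28 in masseter and 0.91 in digastric, and the other 7 arrays ran from 1.16 to 1.93 with a median of 1.68. The other 8 arrays, digastric included, were at background, so the size of the difference and their order cannot be read. Pfkfb3, an enzyme that makes the activator of the glycolytic enzyme phosphofructokinase, was at 8.55 in masseter and 4.77 in digastric. The other arrays ran from 3.54 in soleus to 8.39 in rectus femoris, median 7.42. Apart from the soleus, no other array was below 7.12, so the digastric lay next to the slow muscle, and the masseter lay just above the highest other array.

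Mss51, whose product is found on mitochondria of skeletal muscle, separated both jaw muscles from the rest and from each other. It reached 11.12 in masseter and 8.16 in digastric, and in the other arrays it ran from 4.05 to 5.81 with a median of 4.81. The difference between the jaw muscles was 2.96, or 7.79-fold. No other array came within 2-fold of the digastric.

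Several further genes stood above all 8 other arrays in masseter. Neto2, an accessory subunit of glutamate receptors, was at 5.61 in masseter and 3.11 in digastric, with the other arrays between 2.61 and 3.17. Ctxn3, which encodes a small membrane protein, was at 7.31 in masseter and 4.95 in digastric, and the highest other array was the soleus at 5.74. Cacng1, the gamma subunit of the voltage sensor that triggers calcium release in muscle, reached 9.32 in masseter and 7.30 in digastric, with the others between 7.26 and 8.19. In these 3 genes the digastric lay inside the range of the other muscles. Slc11a1, a metal ion transporter known from macrophages, followed the same pattern with 5.74 in masseter and 3.69 in digastric and 4.44 as the highest other value. Cyp2f2, a cytochrome P450 gene known from airway cells, differed by 2.78, with 6.63 in masseter and 3.86 in digastric. Another probe set for it gave a difference of 0.58, so its size depended on the probe set.

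For a smaller group of genes the digastric was low while the masseter resembled other muscles. Smyd2, a lysine methyltransferase, was at 8.56 in masseter and 6.45 in digastric, with the others between 7.23 and 9.33. Mettl21c, another lysine methyltransferase, had 5.76 in masseter and 3.77 in digastric, with 5.09 to 6.71 elsewhere. The masseter value of both genes lay inside the range of the other 7 and the digastric value lay below it. Dupd1, a dual-specificity phosphatase of muscle, had the muscles on opposite sides, with 7.18 in masseter and 5.08 in digastric and 5.36 to 6.70 between them. B3gat1, a glucuronyltransferase, did the same with 6.14 in masseter and 4.04 in digastric. The remaining genes among the 15 with the largest excess in masseter were Phxr4 (2.19), Ces1d, a carboxylesterase (2.27), and Rabggtb, a subunit of the enzyme that adds lipid to Rab proteins (1.87). The trapezius, at 5.61, was slightly above the masseter for Ces1d, so the masseter was not outside there.

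On the other side, Padi2, which converts arginine in proteins to citrulline, was low in the masseter array. It was at 4.23 in masseter and 9.22 in digastric, and the other arrays ran from 7.29 in soleus to 9.33 in trapezius, median 8.67. The digastric lay within that range and the masseter 31.9-fold below the digastric. A further probe set for Padi2 also had the masseter lowest of the 9 arrays, with a smaller difference of -1.36. Ptpn3, a protein tyrosine phosphatase, was likewise low in masseter, at 3.59 against 5.87 in digastric and at least 5.26 in the other arrays. Agbl1, a carboxypeptidase that shortens glutamate tails of proteins, was at 3.58 in masseter and 5.93 in digastric, below the other 7 in masseter. Cpxm2, a secreted relative of the carboxypeptidases, was at 3.81 in masseter and 5.96 in digastric, but its other probe set pointed the opposite way, with a difference of 0.79.

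The counterpart of Mettl21c, the related methyltransferase gene Mettl21e, was high in the digastric alone. It was at 3.87 in masseter and 7.16 in digastric, with the other arrays between 3.37 and 5.05. The 2 related genes thus set the digastric apart in opposite directions, Mettl21c low and Mettl21e high, while the masseter lay within the other muscles for both. Chpt1, an enzyme of phosphatidylcholine synthesis, and Tmem47, a membrane protein of cell junctions, were also above the other 7 arrays in digastric alone, at 7.34 and 6.73 against 6.05 and 5.49 in masseter.

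**Figure D2:**
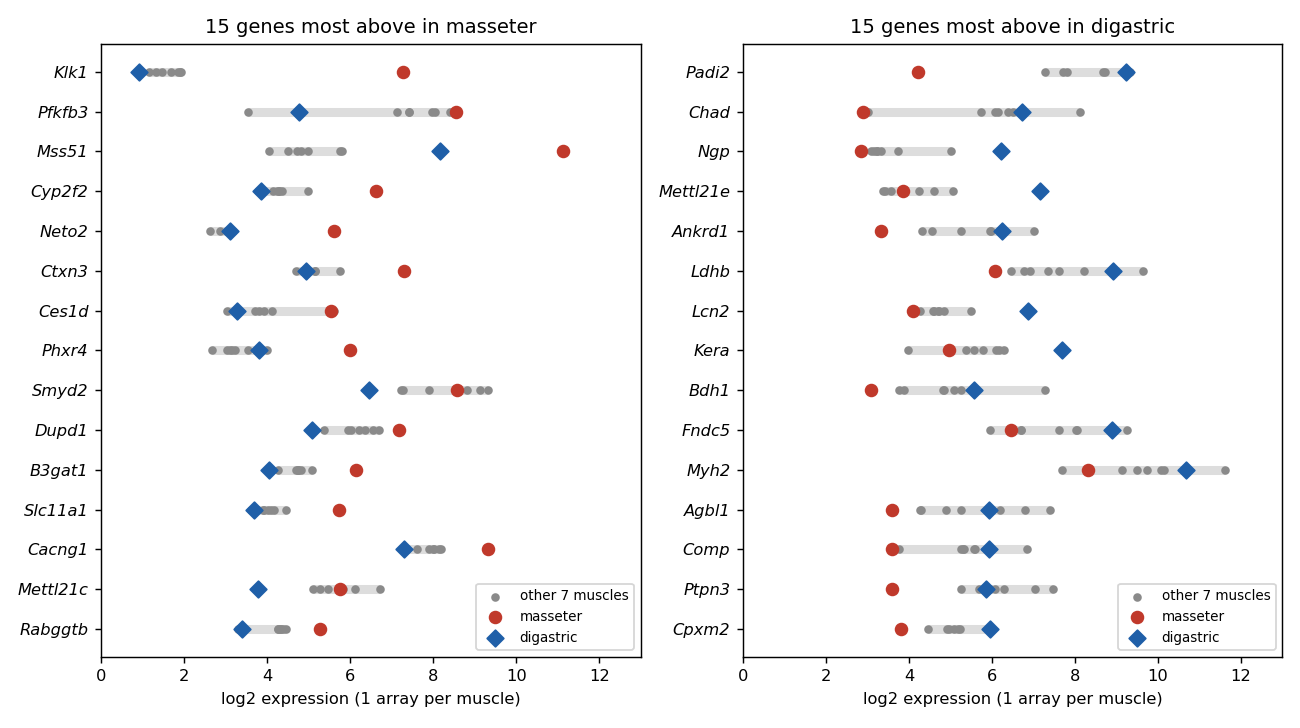
Log2 expression of the 15 genes with the largest excess in masseter (left) and in digastric (right), by muscle. Red circles are masseter, blue diamonds digastric, small grey circles the other 7 muscles and grey bars their range; Klk1 and Mss51 have the masseter beyond that range, Padi2 has it below, and Mettl21e has the digastric above.

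The promoters of Klk1 and Padi2 are shown because these genes head the lists of genes higher in masseter and higher in digastric, by the probe set of highest mean. They are the 250 bases before the annotated start in RefSeq's GRCm38.p6 table, plus strand, at chr7:44225110-44225359 for Klk1 and chr4:140906110-140906359 for Padi2. Capitals mark matches to motifs searched on both strands.
Klk1: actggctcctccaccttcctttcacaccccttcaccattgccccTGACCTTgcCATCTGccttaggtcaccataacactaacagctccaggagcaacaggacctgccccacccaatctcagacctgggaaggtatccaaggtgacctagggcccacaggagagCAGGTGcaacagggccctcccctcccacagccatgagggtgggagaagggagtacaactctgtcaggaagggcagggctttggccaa
Padi2: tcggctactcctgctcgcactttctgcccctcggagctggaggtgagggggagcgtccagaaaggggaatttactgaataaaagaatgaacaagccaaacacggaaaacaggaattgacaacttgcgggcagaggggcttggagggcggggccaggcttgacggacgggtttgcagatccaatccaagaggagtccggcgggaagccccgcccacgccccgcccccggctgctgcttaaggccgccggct
The motifs were the E-box CANNTG bound by myogenic factors, the TATA motif TATAAA, the MCAT core CATTCC and the motif AAGGTCA of estrogen-related receptors. Klk1 held 2 E-boxes, starting at -197 and -87 from the gene start, and the last of these motifs on the other strand, starting at -206. Padi2 held none of the 4 motifs. Over 32851 promoter windows of this length, 66.22% held an E-box, 12.37% the TATA motif, 12.64% the MCAT core and 4.08% the receptor motif. A match describes the letters and is not a binding site.

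The jaw muscles had the highest Myh1 and the lowest Myh7 of the 9 muscles, and they differed in the more oxidative fast myosin. Myh1, the type IIx heavy chain, was at 12.79 in masseter and 12.79 in digastric, both above the highest other array (12.36). Myh4, the type IIb heavy chain, was at 12.42 in masseter and 11.94 in digastric, below the other muscles (12.84 to 12.95) except soleus (8.85). Myh2, the type IIa heavy chain, was the fast gene with the largest difference, at 8.32 in masseter and 10.68 in digastric, which is 5.15-fold. Across the other muscles Myh2 ran from 7.70 in rectus femoris to 11.62 in soleus, so the masseter lay near the low end and the digastric near the high end, neither outside. Of 16 fast fibre genes 15 had a higher value in masseter, with a median difference of 0.24. Their mean level, 11.44 in masseter and 11.22 in digastric, was below that of the other muscles (11.49 to 11.72) except soleus (10.46). Mybpc2, fast myosin-binding protein C, passed the call in that direction, at 11.90 in masseter and 10.81 in digastric. Parvalbumin (Pvalb), the calcium buffer of the fastest fibres, was at 11.58 in masseter and 10.67 in digastric, and alpha-actinin 3 (Actn3), a Z-disc protein of fast fibres, was at 12.30 in masseter and 11.48 in digastric; both lay short of 2-fold.

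Slow heavy chain and troponin genes were low in both. Myh7, the slow heavy chain, was at 4.10 in masseter and 3.68 in digastric, both below the lowest other array (4.35), while the soleus was at 11.62. Slow troponin I (Tnni1), at 3.23 in masseter and 3.42 in digastric, and the slow light chain Myl3, at 2.71 in masseter and 3.46 in digastric, were below all 7 other arrays too. Against that shared low level, 3 of the 16 slow genes were called higher in digastric, a call met by 0.428% of all genes. They were Myoz2, a Z-disc protein of slow fibres (7.43 in masseter and 9.07 in digastric), Casq2, the cardiac and slow calcium-binding protein of the sarcoplasmic reticulum (6.09 in masseter and 7.55 in digastric), and Atp2a2, its slow calcium pump (6.92 in masseter and 8.21 in digastric). Sarcolipin (Sln), an inhibitor of the pump, had a difference of -1.40 below the floor. Fhl2, a LIM domain protein, was the exception, at 6.83 in masseter and 5.34 in digastric, above the other 7 in masseter alone. The slow heavy chain, slow light chain and slow troponin genes were all under the floor in both jaw muscles, so none could be called. Among them the light chain Myl2 was at 4.28 in masseter and 4.25 in digastric. Of the 16 slow genes, 5 reached the floor in a jaw muscle.

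Myh8, the perinatal heavy chain that is replaced during postnatal growth in most muscles, was higher in masseter on both of its probe sets. The probe set with the higher mean over the arrays gave 6.79 in masseter and 5.12 in digastric, and 3.83 to 5.56 in the others. The other probe set gave 10.49 in masseter and 4.08 in digastric, and 3.04 to 3.71 in the others. The masseter was above all 8 other arrays on each, with a difference from the digastric of 1.67 for the former and 6.40 for the latter, the largest of any probe set of a called gene. Myh3, the embryonic heavy chain, was at 2.48 in masseter and 2.70 in digastric and so near background in both. Myh13, the extraocular heavy chain, was at 3.71 in masseter and 2.52 in digastric, below the floor. Cardiac actin (Actc1), also an actin of developing muscle, ran the other way at 9.71 in masseter and 11.10 in digastric. Of the 14 measured genes of the developmental and specialised list, Myh8 and Actc1 were the ones called.

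**Figure D3:**
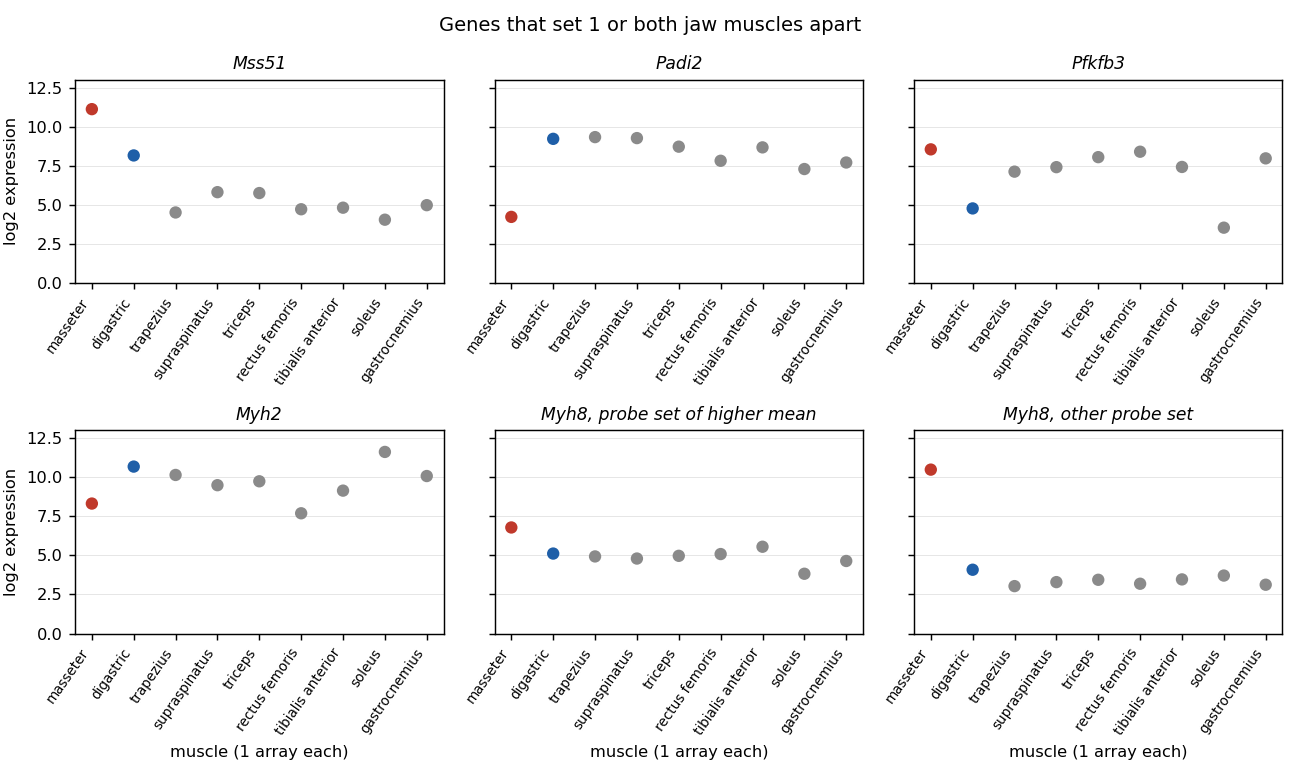
Log2 expression of 5 genes in the 9 muscles, 1 array each, with masseter in red, digastric in blue and the other 7 muscles in grey. Mss51 was above the others in both jaw muscles, Padi2 low in masseter, Pfkfb3 low in digastric and soleus, Myh2 higher in digastric, and Myh8 highest in masseter on both of its probe sets.

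The promoters of the 2 myosin genes are shown because they lie in the same cluster and pointed in opposite directions. They are at chr11:67276874-67277123 for Myh8 and chr11:67170777-67171026 for Myh2, both plus strand and of the same build and length as above.
Myh8: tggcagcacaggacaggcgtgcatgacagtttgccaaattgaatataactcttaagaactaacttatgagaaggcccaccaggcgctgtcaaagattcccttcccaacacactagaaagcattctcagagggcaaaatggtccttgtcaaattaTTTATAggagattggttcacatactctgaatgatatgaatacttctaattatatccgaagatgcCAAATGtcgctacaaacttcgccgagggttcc
Myh2: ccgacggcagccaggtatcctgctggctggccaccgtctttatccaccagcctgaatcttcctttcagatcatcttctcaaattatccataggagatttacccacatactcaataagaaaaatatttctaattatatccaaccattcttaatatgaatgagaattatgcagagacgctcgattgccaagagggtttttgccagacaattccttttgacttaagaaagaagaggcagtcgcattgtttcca
Myh8 held the TATA motif on the other strand, starting at -96, and an E-box starting at -32. Myh2 held none of the 4 motifs. The longest stretch of letters common to both, ttctaattatatcc, has 14 bases and starts at -54 in Myh8 and at -125 in Myh2. It was found in 4 of the 32851 windows, those of Myh1, Myh2, Myh4 and Myh8. Because it was picked for being in both promoters, it could not separate the myosin higher in masseter from the one higher in digastric.

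Most listed genes of fat use were higher in digastric. Of 18 fatty acid genes 16 were higher in digastric, with a median difference of -0.60, and 4 were called, against 0.428% of all genes. Lpl, the lipase that frees fatty acids from lipoproteins, was at 9.14 in masseter and 10.35 in digastric, and Cd36, which takes up fatty acids, at 8.66 in masseter and 9.72 in digastric. For both the digastric was above all 8 other arrays, the soleus being next for Lpl at 10.08. Acaa2, the last enzyme of the oxidation spiral, was at 7.86 in masseter and 9.14 in digastric, and Ppara, a nuclear receptor that drives these genes, at 5.12 in masseter and 6.56 in digastric. Neither of the muscles lay outside the others for the latter pair. None of the 18 genes was called higher in masseter. Outside the list, the fatty acyl-CoA synthetase genes Acsl4 (7.01 in masseter and 5.52 in digastric) and Acsl6 (6.25 in masseter and 5.02 in digastric) were called higher in masseter. The other probe set of Acsl6 pointed the opposite way, with a difference of -0.48.

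The subunits of lactate dehydrogenase pointed in opposite directions. Ldhb, the heart subunit that favours lactate use, was at 6.08 in masseter and 8.92 in digastric, and the others ran from 6.45 to 9.63 in soleus, median 7.35. The masseter was the lowest of the 9 arrays, 7.13-fold below the digastric. Ldha, the subunit of glycolytic fibres, was at 6.83 in masseter and 6.16 in digastric, and there the digastric was the lowest of the 9. Bdh1, which oxidises ketone bodies in mitochondria, was at 3.08 in masseter and 5.58 in digastric and lowest in masseter as well, with the soleus highest at 7.27. Fndc5, the precursor of the secreted peptide irisin, was at 6.45 in masseter and 8.88 in digastric, inside the range of the others.

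Of 16 glycolysis and glycogen genes 15 were higher in masseter, by a median of 0.24, and none was called. The largest excesses were for Fbp2, muscle fructose bisphosphatase (6.77 in masseter and 5.83 in digastric), Ldha, and Gpd1, glycerol phosphate dehydrogenase (10.15 in masseter and 9.49 in digastric). The exception was Gbe1, the glycogen branching enzyme, at 7.18 in masseter and 7.89 in digastric. Slc16a3, the exporter of lactate from glycolytic fibres, was at 8.32 in masseter and 6.98 in digastric. It was called, and it was chosen after its values were seen.

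Respiratory chain and citrate cycle genes differed little between the muscles and were high in both. Of 24 genes 22 were higher in digastric, with a median difference of -0.16, and none was called. The digastric was above the other 7 muscles in 20 of the 24 and the masseter in 10. Sdhb, a subunit of succinate dehydrogenase, had the largest difference, at 9.39 in masseter and 9.90 in digastric. Citrate synthase (Cs) was at 10.85 in masseter and 10.83 in digastric, both above the highest other array at 10.77. Over all genes the digastric was above the other 7 in 13.22% and the masseter in 14.72%.

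Excitation and calcium release genes were slightly higher in masseter. Of 17 genes 15 had a positive difference, with a median of 0.35, and none was called. Ryr1, the calcium release channel, was at 11.70 in masseter and 11.15 in digastric, and the other arrays lay between, from 11.25 to 11.45. Clcn1, the chloride channel that stabilises the resting membrane, was at 8.64 in masseter and 7.99 in digastric, above the others in masseter. Triadin (Trdn), which anchors calsequestrin near the release channel, is no member of the list and was chosen after its values were seen. It was higher in digastric, at 7.51 in masseter and 9.13 in digastric, where the highest other array was at 8.13.

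Tendon genes showed the largest median difference of the 29 lists, with low values in masseter and values in digastric that mostly lay among those of the limb muscles. Of 13 genes 12 were higher in digastric, 7 were called in that direction and none in the other, and the median difference was -1.75. Over all genes, 0.428% were called higher in digastric, and 11276 of 22180 had the higher value there. Chondroadherin (Chad), a cell-binding matrix protein, was at 2.88 in masseter and 6.73 in digastric, and the others ran from 3.01 in trapezius to 8.13 in soleus. Cartilage oligomeric matrix protein (Comp) was at 3.60 in masseter and 5.92 in digastric, and the others ran from 3.77 in trapezius to 6.84 in soleus. For both, masseter and trapezius formed a low pair and the digastric lay among the other 6.

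The trapezius accompanied the masseter in most of the list. Masseter and trapezius were the 2 lowest of the 9 arrays in 8 of the 13 genes. The mean level over the list was 4.69 in masseter and 4.56 in trapezius, while the digastric was at 6.23 and the remaining 6 muscles ran from 5.74 to 6.63. Keratocan (Kera), a proteoglycan of collagen-rich tissue, was the called gene with the digastric farthest above the other muscles, at 4.98 in masseter and 7.68 in digastric, with 6.29 as the highest other value. Fibromodulin (Fmod), which organises collagen fibrils, was at 6.50 in masseter and 8.65 in digastric, and the soleus, at 8.64, was close to the digastric. Tenomodulin (Tnmd), a membrane protein of tendon cells, was at 4.02 in masseter and 5.98 in digastric. Thrombospondin 4 (Thbs4), at 6.37 in masseter and 8.23 in digastric, and Col12a1, at 3.91 in masseter and 5.67 in digastric, completed the called genes. Scleraxis (Scx), the transcription factor of tendon progenitors, differed by -0.03, and lubricin (Prg4) by 0.09.

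**Figure D4:**
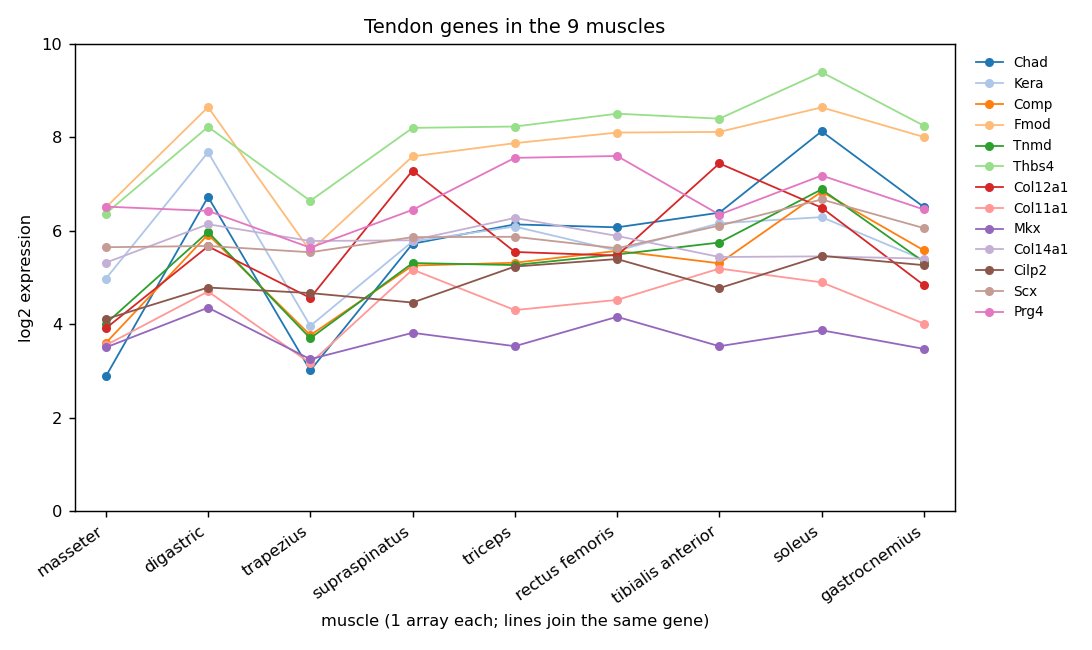
Log2 expression of 13 tendon genes in the 9 muscles, 1 array each; each coloured line joins the values of a gene and has no meaning between muscles. Most lines dip in masseter and trapezius and are near the level of the limb muscles in digastric, whose Kera value is the highest of the 9.

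Matrix genes of general connective tissue were also lower in masseter, with smaller gaps. All 18 measured genes were lower there, the median difference was -0.42, and 3 were called, against 0.428% of all genes called in this direction. Periostin (Postn), a matrix protein of loaded connective tissue, was at 4.52 in masseter and 5.93 in digastric. Col1a1 and Col1a2, the chains of type I collagen, were at 8.62 in masseter and 9.86 in digastric, and at 8.37 in masseter and 9.37 in digastric. The masseter was the lowest of the 9 arrays in 16 of the 18 genes. The digastric was below the other 7 muscles in 6, among them Col3a1 (8.86 in masseter and 9.05 in digastric, others from 9.17) and Col6a3 (6.91 in masseter and 6.95 in digastric, others from 7.42). Over all genes the masseter was below the other 7 in 18.06% and the digastric in 15.55%. The mean level of the list was 6.88 in masseter, 7.41 in digastric and 7.26 to 7.91 in the others.

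Ankrd1, Ankrd2, Ccn1, Ccn2 and Thbs1, which are known to respond to stretch or load, were called higher in digastric. They were picked after their values were seen, so their common direction shows nothing about such genes in general. Ankrd1, a partner of titin that is induced by stretch, was at 3.33 in masseter and 6.24 in digastric, and the others ran from 4.32 to 7.02 in trapezius. The related Ankrd2 was at 6.38 in masseter and 8.12 in digastric, Ccn1 and Ccn2, secreted matrix proteins, were at 5.29 in masseter and 7.01 in digastric and at 4.86 in masseter and 6.49 in digastric, and thrombospondin 1 (Thbs1) was at 4.17 in masseter and 5.87 in digastric. In Ankrd1, Ankrd2, Ccn1 and Thbs1 the masseter alone was below the other 7 arrays and the digastric was within them. Csrp3, another stretch-linked protein of the Z-disc, was at 9.0 in masseter and 9.06 in digastric.

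Regulators showed few large differences apart from Mss51 and Ppara, the genes called among 20. Myostatin (Mstn), the secreted inhibitor of muscle growth, was at 7.11 in masseter and 6.35 in digastric, and the others ran from 1.56 in soleus to 7.19. Ppargc1a, a coactivator of mitochondrial genes, was at 7.79 in masseter and 8.02 in digastric. Eya1 and Six4, cofactor and transcription factor of the fast fibre program, were at 8.14 in masseter and 7.57 in digastric and at 6.82 in masseter and 6.31 in digastric, with the masseter above the other 7 in both. Egln3, a prolyl hydroxylase of the hypoxia pathway, was above all other muscles in both, with 10.32 in masseter and 9.0 in digastric, where the others ran from 5.27 to 8.65. Mapkapk3, a stress kinase, shared that pattern, at 8.62 in masseter and 7.45 in digastric with 7.25 as the highest other value. Blnk, an adaptor of B cells, was at 5.77 in masseter and 4.31 in digastric. Its digastric value was under the floor and barely above the trapezius at 4.26. Smad3, which carries the signal of myostatin and its relatives, had the muscles on opposite sides of the others, with 7.60 in masseter and 6.38 in digastric, where the others ran from 6.73 to 7.04. The kinase gene Dyrk1b did so too, at 9.08 in masseter and 7.91 in digastric.

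Among 18 myogenic and satellite cell genes, 1 was called each way. Myod1, the myogenic factor of fast fibres, was at 6.52 in masseter and 5.35 in digastric, with the digastric below the lowest other array at 5.51. Itga7, the laminin-binding integrin of fibres and satellite cells, was at 6.14 in masseter and 7.18 in digastric, with the masseter below the lowest other array at 6.94. Pax7, the marker of satellite cells, was at 3.69 in masseter and 4.46 in digastric, below the floor, and the other arrays started at 4.44. Myf6, a factor of mature fibres, was at 9.23 in masseter and 8.84 in digastric.

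Patterning genes as a list had no common direction between the 2 arch muscles. Of 19 measured genes 9 were higher in masseter and 10 in digastric, with a median difference of -0.03. Only 5 of the 19 reached the floor in a jaw muscle, so most of these differences were between low values. Lhx2, a LIM homeobox factor of head muscle, was called, at 5.47 in masseter and 4.42 in digastric, and the highest other array was at 4.92. Six2 was at 6.42 in masseter and 5.57 in digastric, above the others in masseter. Tbx1, a T-box factor needed for arch muscles, was at 7.79 in masseter and 8.21 in digastric, with the others between 5.47 and 8.0. Pitx1 and Msc were near background in both, at 3.29 in masseter and 3.55 in digastric and at 3.94 in masseter and 4.11 in digastric. None of 36 Hox genes reached the floor in the jaw muscles. Their values were lower in masseter for 26 genes and in digastric for 9, with a median difference of -0.11 among values that cannot be told from background. Hoxa10, the gene in the title of the series, was at 3.26 in masseter and 3.26 in digastric, and the other arrays ran from 3.31 to 4.43.

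Junction genes were similar, with a median difference of -0.14 over 14. Chrnd, the delta subunit of the acetylcholine receptor, was called, at 4.99 in masseter and 6.08 in digastric, with the others between 4.17 and 5.13. Chrng, the fetal gamma subunit, was at 3.37 in masseter and 3.87 in digastric, below the floor.

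Salivary gland markers differed between the arrays gene by gene rather than as a set. Of 23 measured genes 14 were higher in masseter and 9 in digastric, with a median of 0.19, and their mean level was 3.56 in masseter, 3.19 in digastric and 2.94 to 3.35 in the others. Only 6 of the 23 reached the floor in a jaw muscle. The means include Klk1, at 7.28 in masseter and 0.91 in digastric, which adds to the gap between them. The call was met by 4 genes higher in masseter and 1 higher in digastric, against 0.523% and 0.428% of all genes. Called higher in masseter were Klk1, given above, Klk1b5, a related kallikrein (5.06 in masseter and 3.58 in digastric), and Dcpp2 and Dcpp3, demilune cell and parotid proteins. Klk1b5 was at most 4.16 in the other muscles. Dcpp2 was at 5.05 in masseter and 3.61 in digastric, and the others ran from 3.94 to 5.0 in rectus femoris, so the masseter was close to limb muscles and the digastric was the lowest array. Dcpp3 was at 5.12 in masseter and 3.82 in digastric, and the others ran up to 4.74 in rectus femoris. Called higher in digastric was Bpifa2, the parotid secretory protein (3.74 in masseter and 5.16 in digastric), whose highest other value was 2.99. Salivary amylase (Amy1) was at 2.94 in masseter and 4.18 in digastric, below the floor. The water channel of gland cells, Aqp5, was at 4.72 in masseter and 4.85 in digastric, inside the range of the limb muscles, and the gland keratin Krt8 was at 4.69 in masseter and 4.96 in digastric, also inside it. Muc19, a gland mucin, was at 3.64 in masseter and 3.41 in digastric. A probe set shared by the kallikrein genes Klk1b26 and Egfbp2 was higher in digastric, at 3.98 in masseter and 6.45 in digastric. The part of gland tissue in these differences was not tested.

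Ngp and Lcn2, genes of neutrophil granules, were called higher in digastric. Ngp, neutrophilic granule protein, was at 2.85 in masseter and 6.21 in digastric, and the highest other array was rectus femoris at 5.02. Lipocalin 2 (Lcn2), a granule protein that binds iron carriers, was at 4.10 in masseter and 6.87 in digastric, with rectus femoris next at 5.49. S100a8 and S100a9, calcium-binding proteins of neutrophils, were at 1.54 in masseter and 4.60 in digastric and at 2.12 in masseter and 4.33 in digastric, below the floor. Further neutrophil genes were looked up after these values were seen, and apart from Prtn3, given below, none of them reached the floor in a jaw muscle. Lactoferrin (Ltf) was at 2.21 in masseter and 4.74 in digastric, and Retnlg at 1.45 in masseter and 3.87 in digastric, with rectus femoris next at 3.39 and 3.24. Myeloperoxidase (Mpo) was at 2.59 in masseter and 4.24 in digastric, but rectus femoris was higher still at 4.40. The same held for the granule protease Prtn3, which was called, at 4.35 in masseter and 5.37 in digastric and 5.53 in rectus femoris. The surface marker Ly6g was at 2.46 in masseter and 2.91 in digastric, near background in both. The surface receptor genes Cxcr2 and Csf3r were at 2.66 in masseter and 2.89 in digastric and at 3.06 in masseter and 3.31 in digastric, near background.

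The list of myeloid markers differed less. It holds macrophage genes and also S100a8 and S100a9, given above, which add to the gap between its means. Of 14 myeloid markers 12 were higher in digastric, with a median of -0.40, and none was called. The mean over the list was 4.27 in masseter, the lowest of the 9 arrays, and 4.92 in digastric, within the others at 4.55 to 5.40. Lyz2, lysozyme of macrophages and neutrophils, was at 6.26 in masseter and 7.08 in digastric, with the others from 6.92 to 8.27. Globin probe sets, each shared by several genes, did not all differ alike. Of 3 for beta globin, 2 were called higher in digastric, at 7.27 in masseter and 8.29 in digastric and at 5.51 and 6.59, and the last was at background, at 2.40 and 2.27. The 2 for alpha globin were at 11.10 in masseter and 11.58 in digastric and at 5.69 and 5.79. The probe set shared by Alas2, the first enzyme of haem synthesis in red cells, and Apex2 was at 5.46 in masseter and 6.80 in digastric. The labels name no step that removed blood, and its part in the granule gene differences was not tested.

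**Figure D5:**
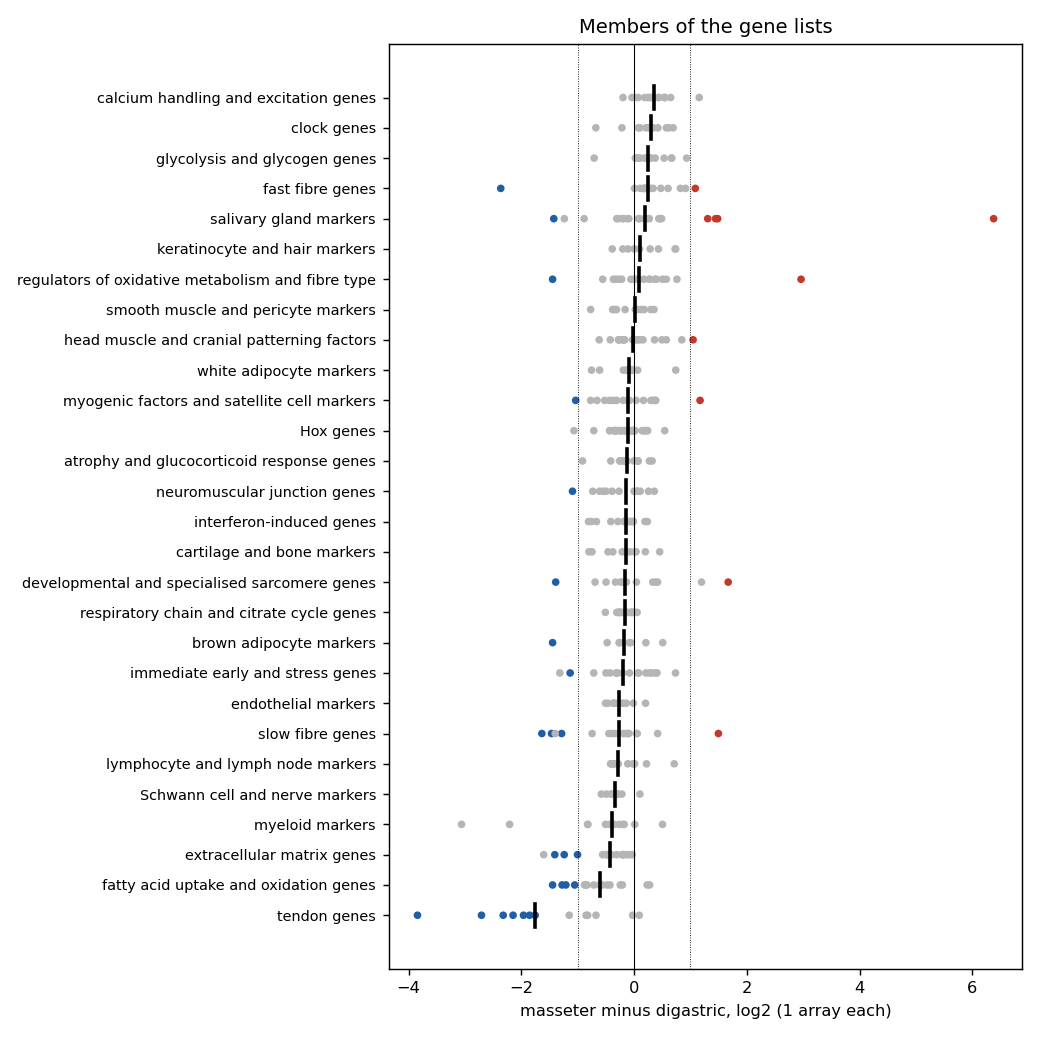
Difference between masseter and digastric (log2, masseter minus digastric, 1 array each) of the measured members of 28 gene lists. Each point is a gene, red or blue where called higher in masseter or digastric and grey otherwise, including genes beyond the dotted 2-fold lines that stayed under 5; black bars are list medians, from 0.35 for calcium handling to -1.75 for tendon genes.

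Vessel genes were slightly higher in digastric. Of 11 endothelial markers 10 had the higher value there, with a median of -0.26, none was called, and the digastric was above the other 7 muscles in 6. Over all genes the digastric was above the other 7 in 13.22%. Flt1, a receptor for vascular growth factor, was at 7.02 in masseter and 7.48 in digastric. Smooth muscle markers had a median of 0.02. Of 11 white adipocyte genes, 7 were below the other muscles in each jaw muscle: Car3, carbonic anhydrase of fat and slow fibres, was at 7.03 in masseter and 7.78 in digastric, where the other muscles had at least 8.62, and adiponectin (Adipoq) was at 2.97 in masseter and 3.16 in digastric. The share of all genes below the other 7 was 18.06% in masseter and 15.55% in digastric. Nerve and Schwann cell markers had a median of -0.33 and no call. Cartilage and bone (-0.15), keratinocyte (0.10), lymphocyte (-0.28), interferon-induced (-0.14) and atrophy genes (-0.13) also gave no call. The floor was reached by 1 of 10 nerve, 2 of 11 cartilage and bone and 0 of 9 keratinocyte genes. It was reached by 1 of 13 lymphocyte and 4 of 14 interferon-induced genes. Most genes of these lists thus could not be called at any difference, whereas all 16 atrophy genes reached the floor.

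Few of the listed genes that follow handling and time of day were called. Of 19 immediate early and stress genes, Atf3 was called, at 4.49 in masseter and 5.62 in digastric, with the masseter below the others. Fos was at 5.44 in masseter and 5.03 in digastric and Egr1 at 5.14 in masseter and 4.41 in digastric, both slightly higher in masseter. Of 14 clock genes 12 were higher in masseter, with a median of 0.30, and none was called. That median was above those of the fast fibre list (0.24) and the glycolysis and glycogen list (0.24). The output gene Dbp was at 6.63 in masseter and 6.21 in digastric, and the repressor Nr1d1 at 8.45 in masseter and 7.88 in digastric. Their part in the other differences was not tested.

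The genes next to the limits of the call were as follows. Just inside the 2-fold limit lay Usf3, at 8.21 in masseter and 7.20 in digastric, and Plin5, at 6.14 in masseter and 7.15 in digastric. Just outside lay Sobp, at 7.44 and 6.45, and Tbx3, at 5.02 and 6.02, whose difference fell short of the limit in a later decimal. Ctss, at 5.01 in digastric, was just above the floor, and Tmed5, at 4.99, just below it. A further 5 genes lay at least 4-fold apart below the floor, all higher in digastric: S100a8, Ltf, Retnlg, S100a9 and Ecrg4. Of the 20 called genes with more than 1 probe set, 13 had the same direction on their probe sets and 7 did not.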

How the data were processed

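Total RNA of 9 muscles was converted to labelled cDNA and measured by the authors on GeneChip Mouse Gene 2.0 ST arrays, 1 per muscle, per the labels' protocols. The deposited table holds log2 expression per probe set. The submitters' processing notes name GCRMA, without a version, a method that models background from the sequence of each probe and equalises the arrays. That the scale is log2 follows from the range of values, 0.118 to 13.5. No detection calls were used, and precision is limited by having 1 array per muscle.

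Of 41345 probe sets, 23521 had 1 gene in the array's annotation, 1814 had several and 16010 had none. Symbols of 23328 were updated through the RefSeq GRCm38.p6 table and 193 kept the array's symbol. For 1082 genes with more than 1 probe set, that with the highest mean over 9 arrays was used. The comparison is masseter minus digastric with no test. Named genes were the 15 with the largest difference each way that reached 5, the 5 farthest outside the other arrays in each class of position, and members of 29 gene lists, of whose 489 entries 44 were not measured. Predicted and small RNA genes were not named by this rule. The muscles, lists and rules were chosen with earlier results of these data known. Calculations used pandas 2.3.3 and, for alternative normalizations, limma 3.58.1. The steps were tested on simulated data.

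Alternatives tried were centring on the array median, quantile or cyclic loess normalization, averaged probe sets, floors of 4 and 6, a difference of 1.5 for a call, and other definitions and sets of comparison muscles. Taking the probe set with the highest value in masseter or digastric was added after Myh8 was seen to differ between probe sets.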

Additional observations from a re-analysis of the deposited data

How the results depend on the processing

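A floor of 6 left 79 genes higher in masseter, 62 higher in digastric and 51 with the masseter alone outside the other muscles. A difference of 1.5 for a call left 32 genes higher in masseter and 33 higher in digastric, with 32 and 12 genes having the masseter or the digastric alone outside. Under the other alternatives, 91 to 133 genes were higher in masseter and 88 to 132 higher in digastric. Quantile normalization gave 91 and 100, so which muscle had more calls depended on these settings. For the 30 leading genes under 8 alternatives, 12 of 240 values lost the call and 0 reversed. Many of the 240 values could not have changed. The changed floors and the cut of 1.5 reuse the same differences, so none could reverse there. The lower floor could not lose a call, nor could the cut of 1.5, as the smallest difference was 1.87, for Rabggtb. The 240 values are therefore no measure of how stable the calls are. The lost calls were 11 under a floor of 6, plus Cpxm2 with averaged probe sets, at -0.68. The medians of the lists moved by less than 0.25; those of head patterning and smooth muscle genes changed sign near 0. No paired analysis was possible because each muscle had 1 array. Values near the array medians cannot be told from background, and no replicate shows how far a difference would repeat.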

Other observations

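Small RNA genes were outside the rule for named genes and were looked at after their values were seen. Of 483 microRNA genes 5 were called higher in masseter, counting the host gene of miR-1a, and none higher in digastric. That is 1.04%, against 0.523% of all genes called in this direction. Mir1a-1, a microRNA gene that is specific to striated muscle, had 5.84 in masseter and 2.99 in digastric, with the other arrays between 3.03 and 5.53. Mir133a-2, transcribed together with a copy of miR-1a, was at 5.89 in masseter and 3.60 in digastric, with the others between 3.62 and 5.05. The host transcript Mir1a-1hg was at 9.04 in masseter and 7.85 in digastric, with the others between 7.91 and 8.68. For all 3 the masseter was above the other 7 arrays. The digastric was below their lowest value by only 0.03 for Mir1a-1, 0.02 for Mir133a-2 and 0.06 for Mir1a-1hg. For the 2 microRNA genes the digastric value was near or below the array medians, so its order cannot be read. Mir23b was at 5.50 in masseter and 3.97 in digastric, with the digastric below the others. These values do not tell mature microRNAs from their precursors.

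Of 78 small nucleolar and Cajal body RNA genes, which guide the modification of ribosomal and spliceosomal RNA, 12 were called higher in masseter and none higher in digastric. That is 15.4%, against 0.523% of all genes called in this direction. In 10 of the 12 the digastric alone was below the other 7 arrays, but tibialis anterior was low as well for several. It was the lowest other array for Snora28 and Snora34. It lay below the digastric for Snora31, at 5.84, and for Snora69, at 3.39 against 3.79 in digastric. Snora28 was at 6.90 in masseter and 5.30 in digastric, with the others between 5.43 and 7.81, and Snora34 at 9.27 in masseter and 7.82 in digastric, with the others between 8.51 and 10.44. Snora31 was the gene with the masseter above the others, at 7.90 in masseter and 6.22 in digastric.

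Probe sets without a named gene were called more often than named genes. Of 16010 such probe sets 186 were higher in masseter and 94 higher in digastric, which is 1.75%, against 0.951% of named genes. Of 1814 probe sets with several genes, 10 were higher in masseter and 8 in digastric. Among the latter was the probe set shared by H19, an imprinted RNA of developing muscle, and the microRNA gene within it, at 9.34 in masseter and 10.63 in digastric.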
